A study of Mus musculus with 12 samples.

Results

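The p53 arrest and feedback genes are the 10 genes Trp53, Cdkn1a, Mdm2, Ccng1, Btg2, Sesn1, Sesn2, Psrc1, Gtse1 and Gdf15, taken by gene symbol from the 22063 genes of the expression table, and all 10 were found. RNA of the intestine was sequenced in 12 libraries, 3 each of the LL_WBI, LL_Ctrl, HH_WBI and HH_Ctrl groups, from female C57BL6/J mice, with no allele named in the labels, that were bought at 7 to 8 weeks of age and kept for 1 week before use. LL_WBI mice received 10 Gy of electrons to the whole body at a low mean and a low instantaneous dose rate from a clinical linear accelerator, and HH_WBI mice received 10 Gy at ultra-high mean and instantaneous dose rates from a compact linear accelerator. LL_Ctrl and HH_Ctrl mice were the unirradiated controls of each mode, and the labels give 48 h for all 4 groups. The mode and the machine changed together, so they cannot be told apart, and the labels do not say whether each library came from a mouse of its own, so the spread behind each p-value is that among libraries and may be technical.

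p53, encoded by Trp53, is a transcription factor that DNA damage turns on mainly by stabilizing the protein, so its mRNA need not change. Its targets include Cdkn1a, which encodes the p21 inhibitor of cyclin-dependent kinases, Mdm2, which encodes the ubiquitin ligase that marks p53 for destruction and so closes a feedback loop, and Ccng1, whose product cyclin G1 acts with a phosphatase on Mdm2. Btg2 encodes an antiproliferative protein that recruits a deadenylase, the sestrins Sesn1 and Sesn2 restrain mTORC1 signaling, Psrc1 and Gtse1 encode microtubule-binding proteins of dividing cells, and Gdf15 encodes a secreted stress cytokine. In the irradiated small intestine p53 is known to act in the crypts, where dividing progenitors arrest or die.

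The sequences just upstream of the transcription starts are shown because they are the stretches in which a p53 half-site could be looked for in the same way in all 10 genes. RefSeq promoter windows of the GRCm38.p6 build (250 bases before and 50 bases after a start) were matched for all 10 genes by symbol, 15 windows in all, and the 250 bases before the start are printed for 5 genes. Capitals mark exact matches to the 10-base p53 half-site consensus, which reads alike on both strands. Cdkn1a is shown at the upstream of its pair of starts (chr17:29090729-29090978, plus strand), and Mdm2 (chr10:117710759-117711008, minus strand), Ccng1 (chr11:40755287-40755536, minus strand), Trp53 (chr11:69580109-69580358, plus strand) and the first window of Psrc1 (chr3:108383554-108383803, plus strand) follow.
Cdkn1a: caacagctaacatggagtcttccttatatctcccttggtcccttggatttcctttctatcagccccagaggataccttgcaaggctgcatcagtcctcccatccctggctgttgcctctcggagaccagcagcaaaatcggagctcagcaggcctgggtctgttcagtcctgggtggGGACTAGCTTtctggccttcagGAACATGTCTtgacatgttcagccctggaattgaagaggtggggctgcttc
Mdm2: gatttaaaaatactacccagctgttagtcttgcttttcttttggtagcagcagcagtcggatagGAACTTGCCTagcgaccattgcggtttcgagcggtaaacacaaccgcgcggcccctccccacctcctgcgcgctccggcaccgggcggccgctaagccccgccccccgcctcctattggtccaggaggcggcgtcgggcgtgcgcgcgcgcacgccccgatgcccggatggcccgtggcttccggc
Ccng1: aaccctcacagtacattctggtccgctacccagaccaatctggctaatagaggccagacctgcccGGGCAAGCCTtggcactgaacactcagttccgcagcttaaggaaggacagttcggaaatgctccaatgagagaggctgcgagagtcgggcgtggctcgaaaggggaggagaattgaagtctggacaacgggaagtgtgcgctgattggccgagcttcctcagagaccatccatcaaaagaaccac
Trp53: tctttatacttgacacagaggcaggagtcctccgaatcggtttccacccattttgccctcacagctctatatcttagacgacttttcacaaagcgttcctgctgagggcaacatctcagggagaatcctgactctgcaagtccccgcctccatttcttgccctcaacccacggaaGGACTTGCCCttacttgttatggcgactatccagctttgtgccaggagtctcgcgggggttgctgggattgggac
Psrc1: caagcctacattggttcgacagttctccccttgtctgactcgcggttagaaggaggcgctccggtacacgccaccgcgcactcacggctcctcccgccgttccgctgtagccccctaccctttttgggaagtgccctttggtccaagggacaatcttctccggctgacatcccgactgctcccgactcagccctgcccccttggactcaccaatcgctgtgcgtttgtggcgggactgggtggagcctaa
Cdkn1a held GGACTAGCTT at 73 bases and GAACATGTCT at 51 bases before this start, 12 bases apart, and these lay 2863 and 2841 bases before its next start. The stretch tgacatgttc directly after GAACATGTCT misses the consensus at its first base alone, so it was neither marked nor counted. Mdm2 held GAACTTGCCT at 186 bases, Ccng1 held GGGCAAGCCT at 185 bases and Trp53 held GGACTTGCCC at 75 bases before the start. Sesn1 held AAGCTTGTTT at 173 bases before its downstream start and Gtse1 held GGGCTTGCCT at 10 bases after its downstream start, while Btg2, Sesn2, Psrc1 and Gdf15 held no match in these windows. The starts of the Btg2 window and of both Psrc1 windows, the printed one included, were not found in a GENCODE transcript. A half-site stood in 6 of the 10 genes, against 9.554% of 27025 genes with a window, and a pair no more than 13 bases apart stood only in Cdkn1a, against 0.074% of genes. A match is a string of letters and no measured binding, and the known p53-responsive promoter of Mdm2 lies in an intron outside this window.

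The libraries differed in composition in ways that the groups do not name. Summed markers of pancreatic acinar and islet cells took 7.58% and 26.8% of the FPKM (fragment counts scaled by transcript length and by library size) of LL_WBI 1 and 2, against 0.512% to 0.948% in the other 10 libraries. Summed ileal markers stood at 107 FPKM in LL_WBI 3 and 621 FPKM in HH_WBI 3, against 13.7 to 25.2 FPKM elsewhere, and summed macrophage markers stood at 31.7 to 69.9 FPKM in HH_Ctrl, against 169 to 357 FPKM in the other 3 groups. All 8 epithelial markers were present in every library, none of them listed at 0. Fewer cells of a type and less RNA per cell cannot be told apart in bulk tissue. Depth is unknown for FPKM, so no counting error is given.

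The 10 genes spanned a wide range of levels. Cdkn1a had the highest mean in each of the 4 groups and Gdf15 the lowest, and no member was listed at 0 in any library. Cdkn1a made up 42.2% to 44.7% of the summed FPKM of the 10 genes in the LL_WBI libraries and 43.4% to 43.9% in the LL_Ctrl libraries, against 48.4% to 53.6% in HH_WBI and 53.6% to 62.2% in HH_Ctrl. In LL_WBI the mean FPKM then ran through Ccng1, Btg2, Trp53, Sesn1, Mdm2, Psrc1, Gtse1, Sesn2 and Gdf15. The library ranges of neighbours overlapped from Ccng1 to Mdm2 and from Psrc1 to Sesn2, so those orders do not stand beyond the spread. In HH_WBI the order was Cdkn1a, Btg2, Ccng1, Sesn1, Trp53, Mdm2, Psrc1, Sesn2, Gtse1 and Gdf15, with overlapping neighbours between Btg2 and Ccng1, between Trp53 and Mdm2, and from Psrc1 to Gtse1. In LL_Ctrl and in HH_Ctrl Sesn1 came next after Cdkn1a, and Psrc1 came just above Gdf15. In HH_Ctrl the library ranges of Sesn1 and of Btg2, the gene after it, overlapped, so that order does not stand beyond the spread.

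**Figure D1:**
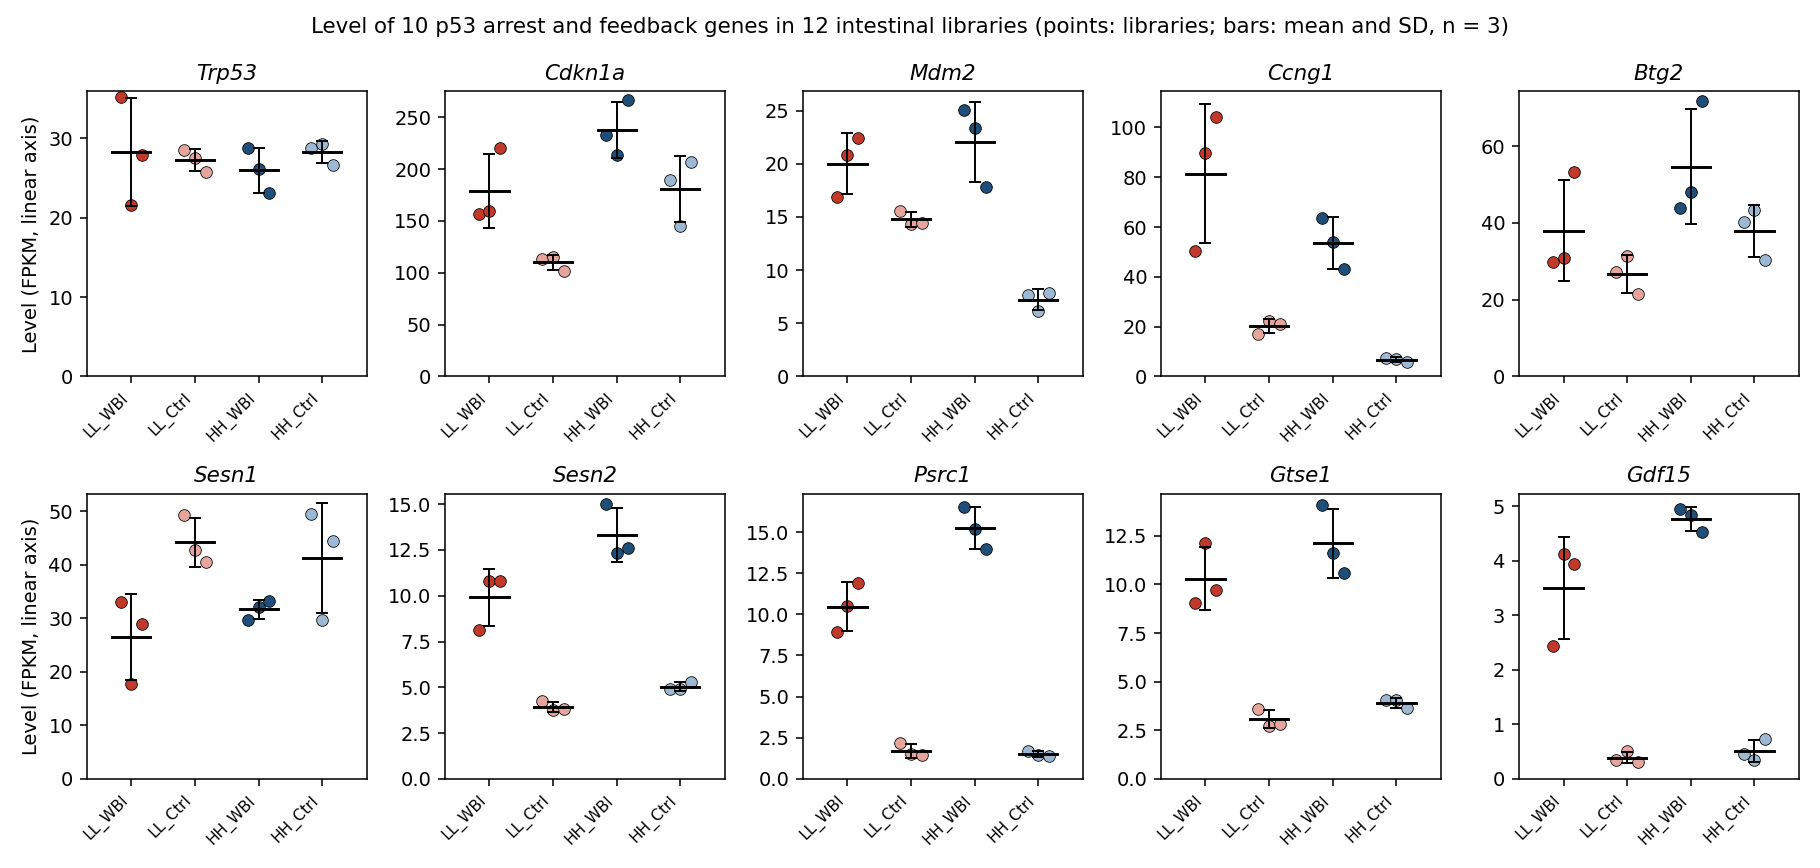
Each panel plots 1 gene, with the level in FPKM on a linear vertical axis that starts at 0 and the 4 groups on the horizontal axis. Points are libraries and bars the mean and SD (n = 3 per group). Psrc1, Gtse1, Sesn2, Gdf15 and Ccng1 lie higher in every irradiated library than in every control of its mode, Trp53 lies at a like level in all groups, and Mdm2 and Ccng1 are lowest in HH_Ctrl.

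Irradiation was first compared with the controls of each mode. A gene was called when its adjusted p was under 0.05 and its log2 fold change was beyond 1 in either direction (limma, on log2 of FPKM plus 0.1). After LL irradiation 4 of the 10 genes were called higher (Sesn2, Psrc1, Gtse1 and Gdf15) and 0 lower, where 0.17% of the 12946 genes tested were called higher. After HH irradiation 6 were called higher (Mdm2, Ccng1, Sesn2, Psrc1, Gtse1 and Gdf15) and 0 lower, where 10% of 12760 genes were called higher. The median log2 fold change of the 10 genes was 1.00 after LL and 1.48 after HH irradiation, beside -0.12 and 0.09 over all genes tested. In the LL groups 7 members lay higher in all irradiated libraries than in all controls and Sesn1 lay lower, as did 9.9% and 19% of all genes tested. In the HH groups 8 members lay higher in this way, as did 30.1% of all genes tested.

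The LL count of members moved together with the calls over all genes when single libraries were left out. It was 0 without LL_WBI 2, LL_Ctrl 2 or LL_Ctrl 3 and 1 without LL_Ctrl 1, where 0.0233% to 0.0385% of all genes tested were called in either direction. It was 5 without LL_WBI 1 (4.86% of all genes called) or LL_WBI 3 (0.968%). Without LL_WBI 1 and 2, the libraries with pancreatic markers, 7 members and 9.84% of all genes were called in a fit of all 10 remaining libraries, in which the lone LL_WBI library is assumed to vary like the other groups. Against the HH controls in place of their own, LL_WBI gave 5 called members, where 12.5% of all genes were called, and HH_WBI, against the LL controls, gave 7, where 9.83% were. The HH count was 6 whichever single library was left out. Among 18 alternatives of the LL comparison, Sesn2 lost its call in 9, Gtse1 in 5, Gdf15 in 4 and Psrc1 in 3. Their log2 fold changes moved little over the single omissions, at 1.24 to 1.44 for Sesn2, 1.59 to 1.83 for Gtse1, 2.72 to 3.09 for Gdf15 and 2.46 to 2.74 for Psrc1. The part of pancreatic, ileal or macrophage RNA in these counts beyond these values was not tested.

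The mRNA of p53 itself showed no called change. Trp53 stood at 35.2, 21.6 and 28.0 FPKM in LL_WBI, against 28.5, 27.5 and 25.8 FPKM in LL_Ctrl, and at 28.8, 26.1 and 23.1 FPKM in HH_WBI, against 28.8, 29.3 and 26.7 FPKM in HH_Ctrl. The irradiated libraries lay on both sides of the controls in the LL groups and overlapped them in the HH groups. The log2 fold change was 0.02 (SE 0.21, adjusted p = 0.955) after LL and -0.12 (SE 0.11, adjusted p = 0.413) after HH irradiation, and the 95% intervals ran from -0.46 to 0.51 and from -0.38 to 0.14.

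Among the arrest genes, Cdkn1a was already the most abundant member without irradiation. It stood at 157, 160 and 221 FPKM in LL_WBI, against 114, 115 and 101 FPKM in LL_Ctrl. In the HH groups it stood at 233, 213 and 267 FPKM in HH_WBI, against 190, 145 and 207 FPKM in HH_Ctrl. Every irradiated library was above every control of its mode, yet the fold change was 1.61 (log2 0.69, SE 0.20, adjusted p = 0.187) after LL and 1.32 (log2 0.40, SE 0.16, adjusted p = 0.0832) after HH irradiation, under the fold threshold in both. Over both modes the mean log2 response of Cdkn1a was 0.55 (SE 0.13, adjusted p = 0.00863), where 16.1% of all genes tested were higher by adjusted p alone. Set against the controls of the other mode, Cdkn1a gave a log2 difference of -0.02 (adjusted p = 0.962) for LL_WBI and 1.11 (adjusted p = 0.000879) for HH_WBI.

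Btg2, the antiproliferative cofactor, was called in neither mode. It stood at 29.9, 30.9 and 53.2 FPKM in LL_WBI, against 27.3, 31.4 and 21.6 FPKM in LL_Ctrl, with overlap, and at 44.0, 48.2 and 71.8 FPKM in HH_WBI, against 40.1, 43.4 and 30.4 FPKM in HH_Ctrl. Replicate 3 was the highest irradiated library in both modes, and these are the libraries with raised ileal markers, whose part in the level of Btg2 was not tested. The log2 fold change was 0.47 (SE 0.27, adjusted p = 0.376) after LL and 0.51 (SE 0.21, adjusted p = 0.0957) after HH irradiation.

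The microtubule-protein genes Psrc1 and Gtse1 rose in both modes. Psrc1 stood at 8.93, 10.5 and 11.9 FPKM in LL_WBI, against 2.17, 1.49 and 1.44 FPKM in LL_Ctrl, and at 16.6, 15.2 and 14.0 FPKM in HH_WBI, against 1.70, 1.44 and 1.42 FPKM in HH_Ctrl. Psrc1 rose 5.91-fold after LL (log2 2.56, SE 0.22, adjusted p = 0.0119) and 9.47-fold after HH irradiation (log2 3.24, SE 0.15, adjusted p = 0.000214), and it had rank 1 by p-value of all genes tested both in the HH comparison and in the mean response of both modes. The groups did not overlap in either mode.

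Gtse1, a partner of p53 that is best known from dividing cells, stood at 9.04, 12.1 and 9.70 FPKM in LL_WBI, against 3.60, 2.74 and 2.85 FPKM in LL_Ctrl, and at 14.1, 11.6 and 10.6 FPKM in HH_WBI, against 4.08, 4.07 and 3.63 FPKM in HH_Ctrl. It rose 3.28-fold after LL (log2 1.71, SE 0.19, adjusted p = 0.0218) and 3.02-fold after HH irradiation (log2 1.59, SE 0.15, adjusted p = 0.000932). Of 13 tested proliferation genes, 0 were called after LL irradiation (median log2 fold change -0.31). Their summed level was 233, 83.9 and 96.5 FPKM in LL_WBI 1, 2 and 3, on both sides of the 134 to 163 FPKM in LL_Ctrl. In HH_WBI 1, 2 and 3 the summed level was 123, 133 and 101 FPKM, all below the 163 to 198 FPKM in HH_Ctrl. After HH irradiation 1 of the 13 genes was called, lower (median -0.57), where 2.38% of all genes tested were called lower. That gene was Tyms, thymidylate synthase, at 8.64, 8.33 and 10.9 FPKM in HH_WBI, against 16.2, 22.2 and 19.5 FPKM in HH_Ctrl (log2 -1.05). Mki67, the proliferation antigen, gave a log2 difference of -0.99 (adjusted p = 0.209) after LL and -0.80 (adjusted p = 0.112) after HH irradiation.

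Of the feedback genes, Mdm2 was called after HH irradiation and in the difference between the responses, and Ccng1 after HH irradiation. Mdm2 stood at 16.9, 20.8 and 22.4 FPKM in LL_WBI, against 15.6, 14.3 and 14.4 FPKM in LL_Ctrl, and at 25.0, 23.3 and 17.9 FPKM in HH_WBI, against 7.70, 6.13 and 7.85 FPKM in HH_Ctrl. The irradiated groups lay in a like range and the HH controls lay below the LL controls. Mdm2 rose 3.01-fold after HH irradiation (log2 1.59, SE 0.17, adjusted p = 0.00108), and its log2 fold change after LL irradiation was 0.43 (SE 0.17, adjusted p = 0.252). The difference between the responses was 1.16 on the log2 scale (SE 0.23, adjusted p = 0.0194), in a comparison that called 7.37% of 12921 genes by adjusted p alone, 6.73% in this direction. Mdm2 was the 1 member called. Its value of 1.16 is the difference of 0.14 between HH_WBI and LL_WBI less that of -1.03 between HH_Ctrl and LL_Ctrl, so most of it lay between the control groups. The call was lost without LL_Ctrl 2, LL_Ctrl 3 or HH_WBI 1, at log2 differences of 1.05 to 1.31 over all single-library omissions. Set against the controls of the other mode, Mdm2 gave a log2 difference of 1.46 (adjusted p = 0.00607) for LL_WBI and 0.56 (adjusted p = 0.0192) for HH_WBI.

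Ccng1 stood at 50.4, 89.8 and 104 FPKM in LL_WBI, against 17.1, 22.4 and 21.2 FPKM in LL_Ctrl, and at 63.8, 54.0 and 43.0 FPKM in HH_WBI, against 7.50, 6.87 and 5.65 FPKM in HH_Ctrl. All irradiated libraries stood above all controls of both modes. Ccng1 rose 7.88-fold after HH irradiation (log2 2.98, SE 0.17, adjusted p = 0.000283). After LL irradiation the fold change was 3.86 (log2 1.95, SE 0.29, adjusted p = 0.0577), short of the threshold, with LL_WBI 1 well below the other 2 irradiated libraries. It passed in 8 of 18 alternatives, among them all 12 libraries in one fit, all 6 controls, and the omission of LL_WBI 1 or LL_WBI 3. The omission of LL_WBI 3 is counted again there as the omission of the ileal libraries, which is the same fit. The difference between its responses was 1.03 (SE 0.35, adjusted p = 0.0980).

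Of the sestrins, Sesn2 rose in both modes and Sesn1 was not called. Sesn2, the stress-induced sestrin, stood at 8.13, 10.8 and 10.8 FPKM in LL_WBI, against 4.23, 3.74 and 3.82 FPKM in LL_Ctrl, and at 15.0, 12.3 and 12.6 FPKM in HH_WBI, against 4.91, 4.89 and 5.32 FPKM in HH_Ctrl. It rose 2.47-fold after LL (log2 1.304, SE 0.18, adjusted p = 0.0440) and 2.60-fold after HH irradiation (log2 1.38, SE 0.13, adjusted p = 0.000934). Sesn1, its relative, stood at 33.1, 17.7 and 29.0 FPKM in LL_WBI, against 49.4, 42.7 and 40.6 FPKM in LL_Ctrl, and at 29.7, 32.1 and 33.3 FPKM in HH_WBI, against 49.6, 29.7 and 44.5 FPKM in HH_Ctrl. All LL_WBI libraries lay below all LL controls, whereas in the HH groups HH_Ctrl 2 (29.703 FPKM) lay just below the lowest HH_WBI library (29.728 FPKM) and the other 2 controls lay above all HH_WBI libraries. The log2 fold change of Sesn1 was -0.78 (SE 0.25, adjusted p = 0.210) after LL and -0.35 (SE 0.19, adjusted p = 0.178) after HH irradiation. Its mean over both modes was -0.56 (SE 0.17, adjusted p = 0.0258), under the fold threshold, where 14% of all genes tested were lower by adjusted p alone.

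Gdf15, the secreted cytokine, was the least abundant member and had a high fold change in both modes. It stood at 2.44, 4.13 and 3.94 FPKM in LL_WBI, against 0.350, 0.516 and 0.310 FPKM in LL_Ctrl, and at 4.95, 4.84 and 4.52 FPKM in HH_WBI, against 0.462, 0.340 and 0.739 FPKM in HH_Ctrl. The groups were far apart in both modes. Gdf15 rose 7.25-fold after LL (log2 2.86, SE 0.31, adjusted p = 0.0200) and 8.22-fold after HH irradiation (log2 3.04, SE 0.27, adjusted p = 0.000854) on the scale of FPKM plus 0.1, which understates the change of a gene this low. Over the 6 control libraries Gdf15 was under the mean of 0.5 FPKM required for testing, so it was not tested between the control groups.

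**Figure D2:**
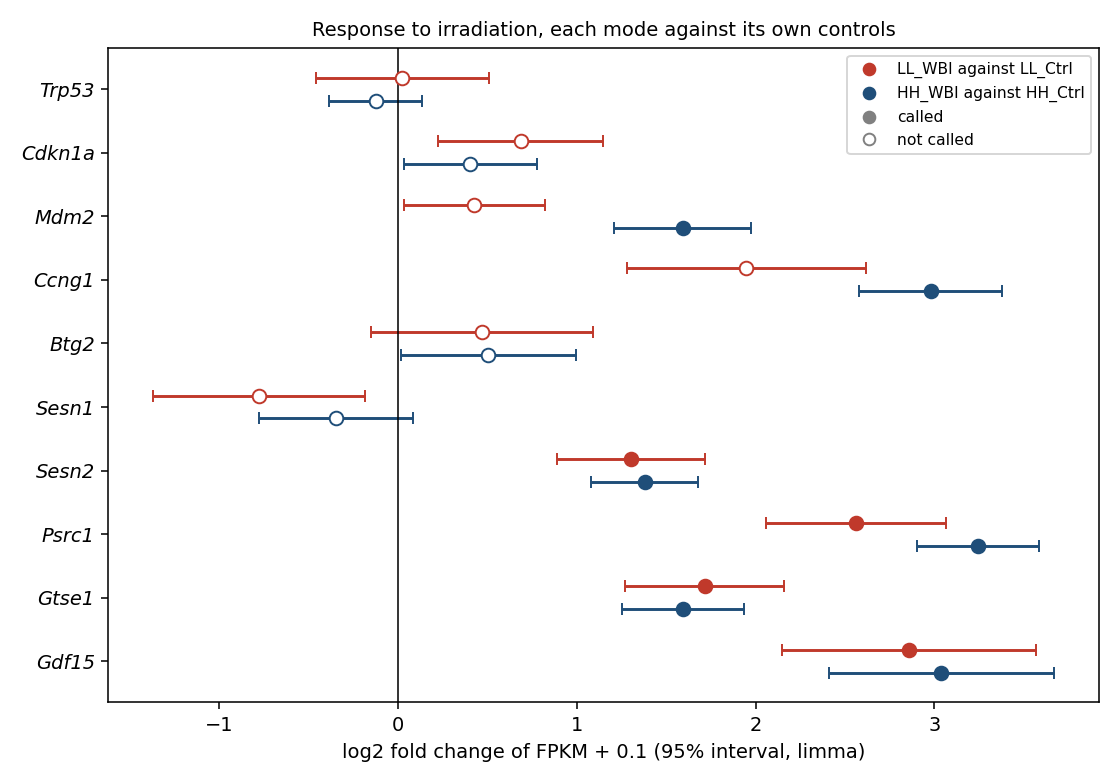
The log2 fold change of FPKM plus 0.1 is on the horizontal axis with its 95% interval for each of the 10 genes, in LL_WBI against LL_Ctrl (red) and HH_WBI against HH_Ctrl (blue), and filled points are called. The intervals of Trp53 include 0 in both modes, and those of Mdm2 are apart between the modes (log2 0.43 and 1.59).

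Averaged over both modes in one fit of the 12 libraries, 6 members were called higher (Mdm2, Ccng1, Sesn2, Psrc1, Gtse1 and Gdf15) and 0 lower, where 5.78% of 12921 genes were called higher. The mean log2 response was 2.95 for Gdf15 (SE 0.20, adjusted p = 1.49e-05), 2.90 for Psrc1 (SE 0.13, adjusted p = 6.78e-07), 2.46 for Ccng1 (SE 0.18, adjusted p = 1.49e-05) and 1.65 for Gtse1 (SE 0.12, adjusted p = 1.49e-05). It was 1.34 for Sesn2 (SE 0.10, adjusted p = 2.65e-05) and 1.01 for Mdm2 (SE 0.12, adjusted p = 0.000305). The call of Mdm2 was lost in 7 of 21 alternatives, with values of 0.94 to 1.10.

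The modes were then compared without and with irradiation. Among controls, 2 of 9 tested members were called lower in HH_Ctrl than in LL_Ctrl and 0 higher, where 11.9% of 12595 genes were called lower. These were Ccng1 (log2 -1.59, SE 0.14, adjusted p = 0.000234) and Mdm2 (log2 -1.03, SE 0.12, adjusted p = 0.000485), each with the 3 HH_Ctrl libraries below the 3 LL_Ctrl libraries, as were 38.2% of all genes tested. Mdm2 lost this call in 4 of 14 alternatives, among them without LL_Ctrl 1 or HH_Ctrl 2, at values of -1.09 to -0.86. Cdkn1a was 1.63-fold higher in HH_Ctrl by adjusted p alone (log2 0.70, SE 0.14, adjusted p = 0.00467), as were Btg2 (log2 0.50, adjusted p = 0.0476) and Sesn2 (log2 0.35, adjusted p = 0.0313), all under the fold threshold, in a comparison where 13% of all genes were higher by adjusted p alone. In the comparisons that use HH_Ctrl the macrophage markers moved with Mdm2 and Ccng1. Of these markers 7 of 7 were called lower in HH_Ctrl than in LL_Ctrl. In HH_WBI 7 of 7 were called higher than in HH_Ctrl, with none listed at 0. Of the Paneth cell markers, 6 of 6 were called lower in HH_Ctrl than in LL_Ctrl and 5 of 6 higher in HH_WBI than in HH_Ctrl. In LL_WBI against LL_Ctrl, 0 of 7 macrophage and 0 of 6 Paneth markers were called, where 0.247% of all genes tested were. There the log2 fold change was 1.95 for Ccng1 and 0.43 for Mdm2, neither called. The part of either cell type in the levels of Mdm2 and Ccng1 was not tested.

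Between the irradiated groups no member was called, and 0% of the 13049 genes tested with limma were, while 11.2% had an unadjusted p under 0.05. Of the members, Psrc1 had the lowest adjusted p (0.419), at a log2 difference of 0.55 with a 95% interval of 0.10 to 0.99. Sesn2, Psrc1 and Gdf15 were higher in all 3 HH_WBI libraries than in all 3 LL_WBI libraries, as were 8.42% of all genes tested. Pancreatic markers took 7.58% and 26.8% of the FPKM of LL_WBI 1 and 2, which leaves a smaller share to other genes there. With the pancreatic lists removed, the median log2 difference of all genes moved from -0.002 to -0.18. Whether these 3 genes stay apart on that scale was not tested. For Mdm2 the difference was 0.14 (95% interval -0.36 to 0.63) and for Ccng1 -0.56 (95% interval -1.25 to 0.14), intervals that allow changes of over 1.5-fold.

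**Figure D3:**
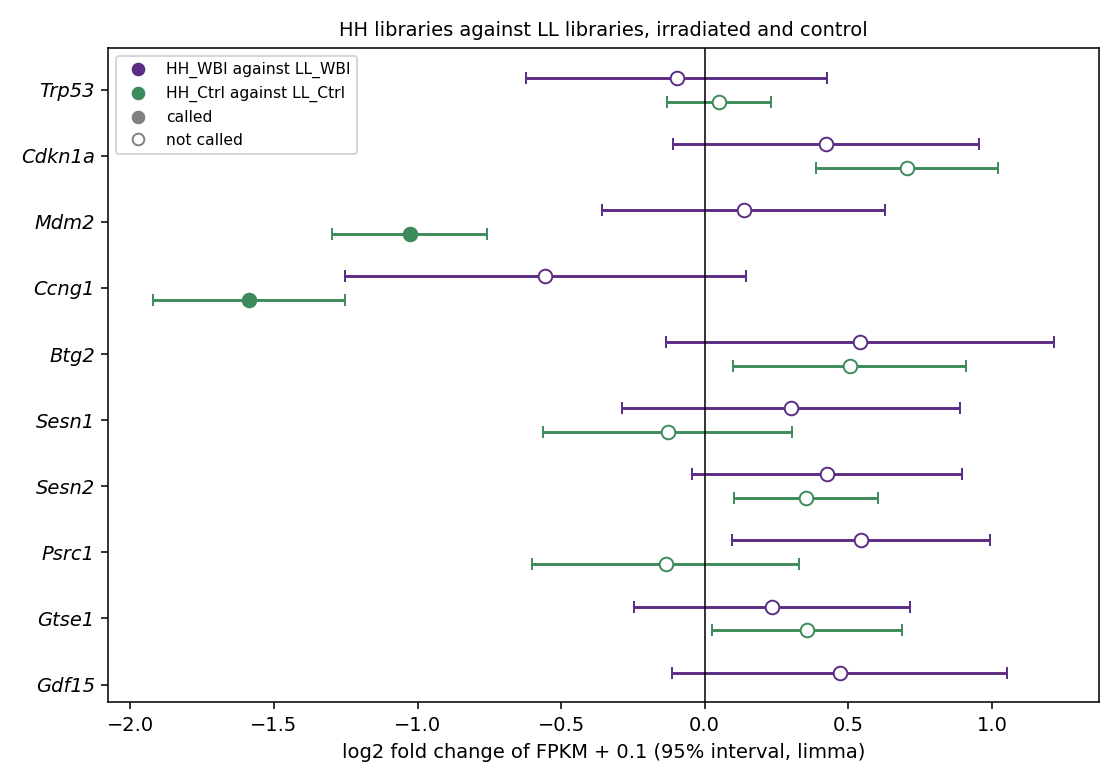
Each gene's log2 fold change of FPKM plus 0.1 and its 95% interval are on the horizontal axis for HH_WBI against LL_WBI (purple) and HH_Ctrl against LL_Ctrl (green), and filled points are called. Mdm2 and Ccng1 are called in the controls alone, at -1.03 and -1.59, and Gdf15 has no value in the controls.

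The neighbours of the 10 genes in the p53 pathway were counted in the same fits. Of 15 tested p53 targets in cell death, 5 were called higher after LL irradiation (median log2 fold change 0.96) and 8 after HH irradiation (median 1.03), with 0 lower in either. Of all genes tested, 0.17% were called higher after LL and 10% after HH irradiation. Phlda3, a brake on Akt signaling, stood at 12.8, 26.2 and 38.0 FPKM in LL_WBI, against 2.39, 2.48 and 3.24 FPKM in LL_Ctrl, and at 24.9, 22.6 and 24.5 FPKM in HH_WBI, against 1.47, 1.60 and 2.22 FPKM in HH_Ctrl. Its log2 fold changes were 3.08 and 3.71. Eda2r, a TNF receptor family member, was called in both modes too (log2 2.96 after LL and 3.79 after HH irradiation), as were Aen (1.64 and 1.51) and Zmat3 (1.80 and 1.89). Siva1, a proapoptotic gene, was called after LL irradiation (1.45), while its HH value was 0.68 (adjusted p = 0.0102), and the difference between its responses was called (-0.77, adjusted p = 0.0431). Bbc3, which encodes the p53 effector Puma, Trp53inp1 and Apaf1 were called in the HH comparison and not in the LL one (HH values 1.10, 1.58 and 1.03). Of these, the difference between the responses was called for Apaf1 (1.35, adjusted p = 0.0212) and not for Bbc3 (0.14, adjusted p = 0.877) or Trp53inp1 (0.48, adjusted p = 0.554). For Siva1 and Apaf1 the control groups differed by 0.67 and -0.78 (HH_Ctrl minus LL_Ctrl) and the irradiated groups by -0.10 and 0.57. Bax, a pore-forming death effector, passed in HH (1.10 on the log2 scale, adjusted p = 0.000854) and missed in LL (1.25, adjusted p = 0.0551). The difference between its responses was -0.15 (adjusted p = 0.694).

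Of 15 other tested p53 targets in arrest, repair and metabolism, 0 were called after LL irradiation (median 0.29) and 5 were called higher after HH irradiation (median 0.57): Plk2, Polk, Ckap2, Ercc5 and Dram1. Plk2, a polo-like kinase, stood at 6.003, 15.6 and 16.1 FPKM in LL_WBI, against 2.33, 1.83 and 3.25 FPKM in LL_Ctrl, and at 16.3, 15.7 and 13.5 FPKM in HH_WBI, against 1.24, 1.34 and 2.06 FPKM in HH_Ctrl. Its log2 fold change was 2.21 (adjusted p = 0.107) after LL and 3.24 (adjusted p = 0.000353) after HH irradiation, and the difference between these was 1.03 (adjusted p = 0.227). Of 15 tested regulators of p53, 0 were called after either irradiation, with medians of -0.11 and 0.12. Mdm4, the partner of Mdm2 in restraining p53, had log2 fold changes of 0.28 (adjusted p = 0.471) after LL and 0.58 (adjusted p = 0.172) after HH irradiation.

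The families of the members were counted too. Of 9 tested relatives, 0 were called after LL irradiation (median -0.19) and 1 was called higher after HH irradiation (median 0.45), near the 10% of all genes called higher there. This was Btg3, of the Btg family, at 5.67, 4.89 and 5.18 FPKM in HH_WBI, against 1.69, 1.74 and 1.38 FPKM in HH_Ctrl (log2 1.65, adjusted p = 0.00108). Ccng2, the other cyclin G, had log2 fold changes of -0.20 (adjusted p = 0.702) after LL and 0.55 (adjusted p = 0.0563) after HH irradiation, and Sesn3 had 0.29 (adjusted p = 0.451) and 0.45 (adjusted p = 0.182). Of 14 tested cyclins, their kinases and partners, 0 were called after LL irradiation, and 2 were called higher (Ccnd1 and Ccnd2) and 1 lower (Cdk1) after HH irradiation. Of all genes tested in the HH comparison, 10% were called higher and 2.38% lower, so these counts are no result about the list. Ccnd2, a D-type cyclin of the G1 phase, stood at 61.4, 55.4 and 120.0 FPKM in LL_WBI, against 24.3, 25.9 and 23.2 FPKM in LL_Ctrl, and at 119, 67.7 and 83.6 FPKM in HH_WBI, against 17.1, 18.1 and 18.7 FPKM in HH_Ctrl. Cdk1, the kinase of mitotic entry, averaged 13.1 ± 1.23 FPKM in HH_WBI and 29.0 ± 2.45 FPKM in HH_Ctrl (SD, n = 3 each), and fell by 1.14 on the log2 scale. Of 11 tested genes of the ATF4 stress response, which also induces Sesn2 and Gdf15, 1 was called higher after LL irradiation (Psat1, log2 1.61, adjusted p = 0.0197) and 1 after HH irradiation (Vldlr, log2 1.45). Of all genes tested, 0.17% were called higher after LL and 10% after HH irradiation, and the HH count is near that share.

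**Figure D4:**
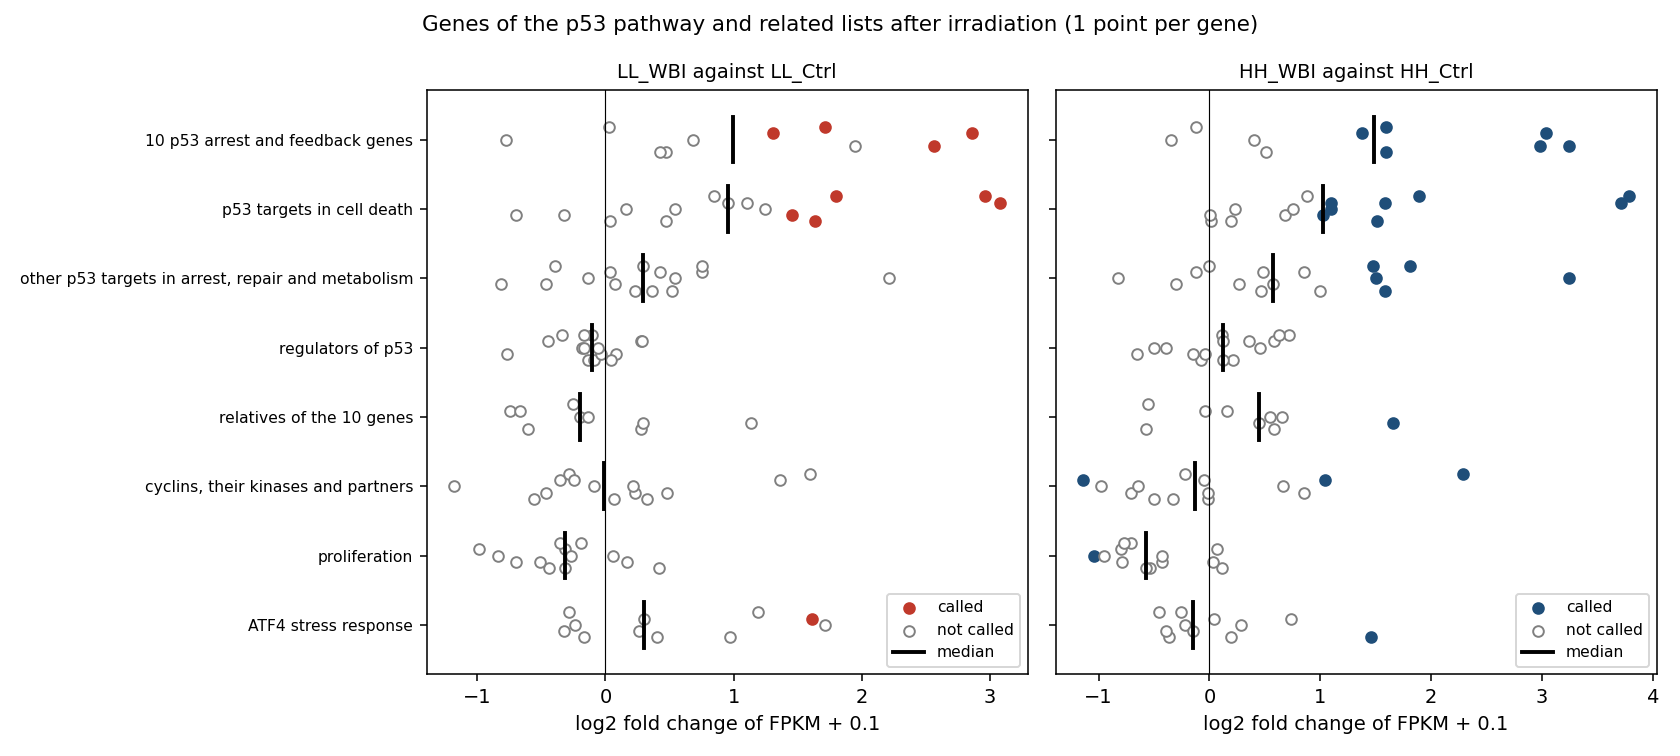
Each point is 1 tested gene, placed by its log2 fold change of FPKM plus 0.1 on the horizontal axis, in rows for the 10 genes and the 7 related lists, with LL_WBI against LL_Ctrl on the left and HH_WBI against HH_Ctrl on the right. Filled points are called and bars are medians, which for the 10 genes lie at 1.00 and 1.48 and for the regulators of p53 at -0.11 and 0.12.

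The genes whose pattern was most like that of the 10 members were looked for over the 12 libraries. The likeness was Pearson's r with the mean of the members' standardized log2 levels, over 11729 genes that averaged at least 1 FPKM, and is a description without a test because the libraries share groups and differ in composition. For a member the mean of the other 9 was used, so that it was not set against itself. Psrc1 (r = 0.949), Sesn2 (0.925), Gdf15 (0.923) and Gtse1 (0.902) had the highest values, and Ccng1 (0.707), Cdkn1a (0.686), Mdm2 (0.660) and Btg2 (0.583) had lower ones. Those of Trp53 (-0.19) and Sesn1 (-0.58) were below 0. Outside the 10, set against the mean of all 10, the highest values belonged to Casp14 (0.961), Arhgap35 (0.955), Ccnd2 (0.946), C7 (0.944) and Dusp3 (0.944). Casp14, a caspase known from skin, stood at 1.03, 1.73 and 3.17 FPKM in LL_WBI, against 0.017, 0.019 and 0.039 FPKM in LL_Ctrl, and at 4.82, 2.48 and 3.71 FPKM in HH_WBI, against 0.12, 0.085 and 0.02 FPKM in HH_Ctrl.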

How the data were processed

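RNA of mouse intestine was sequenced in 12 libraries, 3 per group, and groups were taken from the sample labels. The deposited values are FPKM per gene, which the authors computed with StringTie. The submitters' processing notes list Bowtie 0.12.2 as a tool and mm8, mm39 and GRCm39 as builds, with no role given. The labels describe removal of ribosomal RNA and the study's methods describe oligo(dT) selection, and this was not settled. Depth is unknown, since FPKM keep no counts.

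Values were transformed as log2 of FPKM plus 0.1. Genes averaging 0.5 FPKM or more in the libraries of a fit were tested by group with limma 3.58.1 in R 4.3.3 (eBayes with a trend). P-values were adjusted by Benjamini and Hochberg over all genes tested. Calls needed an adjusted p under 0.05 and a log2 fold change beyond 1 in either direction, or the adjusted p alone for the difference between the responses. Pairs of groups were fitted on their own 6 libraries, and the difference and mean of the responses on all 12. The code was tested on simulated data. Named genes were all 10 members, called or family-defining genes of 7 related lists, and the 5 most alike genes. The members and lists were chosen with earlier results of these data known. Alternatives were another pseudocount, filter, scaling, variance model, set of controls, a replicate block and the omission of libraries, and 3 of them (omitting both libraries with pancreatic or both with ileal transcripts, and exchanging controls) were chosen after seeing the data. Promoter sequences are from RefSeq (GRCm38.p6). The start of 11 of the 15 windows was found in a GENCODE transcript, and those of the Btg2 window, both Psrc1 windows and the first Gtse1 window were not. No coordinates are given for the expression table, whose build is not stated.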

Additional observations from a re-analysis of the deposited data

Results flagged for a closer look

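The response to irradiation differed between the modes by a test of the difference itself (limma on 12 libraries, adjusted over all genes) for 8 genes among the 10 p53 arrest and feedback genes and the lists set beside them. These were 7.92% of the 101 genes tested in that set, near the 7.37% of all 12921 genes tested that were called in this comparison, so the count is no result about the set. Values are the HH response minus the LL response on the log2 scale. Among the members it was Mdm2, at 1.16 (SE 0.23, adjusted p = 0.0194), a call lost in 3 of 20 alternatives. In Mdm2, 3 of 3 HH_WBI libraries lay above every HH control and 3 of 3 LL_WBI libraries above every LL control. Of all genes tested, 30.1% (HH) and 9.9% (LL) did so, and this separation within each mode does not compare the modes.

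Of the p53 targets, Apaf1, the apoptosome scaffold, differed by 1.35 (adjusted p = 0.0212), Ckap2 by 1.21 (adjusted p = 0.0237), Ercc5, a repair nuclease, by 1.18 (adjusted p = 0.0486) and Siva1 by -0.77 (adjusted p = 0.0431). Cop1, a ubiquitin ligase for p53, differed by 1.06 (adjusted p = 0.0175), Tob1, a relative of Btg2, by 0.79 (adjusted p = 0.0264) and Asns, asparagine synthetase of the ATF4 response, by -1.33 (adjusted p = 0.0312). Cop1 stood at 28.8, 24.9 and 37.0 FPKM in LL_WBI, against 38.2, 36.5 and 38.2 FPKM in LL_Ctrl, and at 31.0, 26.9 and 27.3 FPKM in HH_WBI, against 17.2, 16.4 and 17.8 FPKM in HH_Ctrl. As for Mdm2, its HH controls were the lowest group. The difference between HH_WBI and LL_WBI was 0.14 for Mdm2 and -0.07 for Cop1, and that between HH_Ctrl and LL_Ctrl was -1.03 and -1.13, so most of both differences between the responses lay between the control groups. For Ckap2 these values were 0.22 (irradiated) and -0.997 (controls), for Ercc5 0.38 and -0.801, and for Tob1 0.28 and -0.51. The larger part again lay between the controls. For Asns they were -0.76 and 0.58, with the larger part between the irradiated groups. Pancreatic markers were raised in LL_WBI 1 and 2, and their part in the level of Asns was not tested.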

How the results depend on the processing

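Of 1036 values of the 10 genes under the alternatives, 948 kept direction and side of the threshold, 36 lost a call, 20 gained one and 32 changed sign. Scaling moved the median of all genes from -0.12 to 0.06 (LL response, pancreatic lists removed), 0.09 to -0.02 (HH response, median-ratio scaling) and -0.13 to 0.03 (controls, median-ratio scaling).

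The LL count of 4 became 2 with median-ratio scaling (Psrc1 and Gdf15) and 7 without both pancreatic libraries, and ran from 0 to 5 over single omissions. The control count of 2 became 1 with a pseudocount of 1 FPKM or median-ratio scaling and 5 by adjusted p alone, and ran from 1 to 2. The count for the difference between the responses was 2 (Mdm2 and Ccng1) without both ileal libraries and ran from 0 to 2, and that for the mean response ran from 5 to 6. The HH count was 6 in all alternatives but the exchanged controls (7). With the replicate block the counts were 5 (LL), 6 (HH), 2 (controls), 0 (irradiated groups), 1 (difference) and 6 (mean). Same-numbered libraries correlated at -0.04 to 0.10 (LL) and 0.04 to 0.24 (HH), and those of different numbers at -0.18 to 0.17 and -0.32 to 0.16. These few values cannot settle whether the HH numbers are pairs, and numbers were not taken as pairs in the main fits.

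Over all genes the LL calls of 32 became 20 unfiltered, 15 with median-ratio scaling, 116 with the block, 223 in one fit, 206 with 6 controls, 1266 without the pancreatic libraries and 1612 with exchanged controls, and ran from 3 to 632 over single omissions. The HH calls of 1584 became 877 with a pseudocount of 1, 792 with 6 controls and 4614 by adjusted p alone, and the control calls of 1790 became 1065 and 5647 with that pseudocount and by adjusted p alone. The 952 calls of the difference became 2310 without the ileal libraries and ran from 69 to 2030 over single omissions, the 941 of the mean response became 434 with that pseudocount, 3889 by adjusted p alone and 1518 without the pancreatic libraries, and the 0 between irradiated groups became 9 with the block, 115 in one fit and 217 without the ileal libraries (0 to 330 over omissions). Of the calls, 68.8% (LL), 80.8% (HH), 16.3% (controls) and 91.4% (difference) were higher. These became 82.6% and 65.7% for LL and the difference without the pancreatic lists, and 70.1%, 27.2% and 70.3% for HH, controls and the difference with median-ratio scaling.

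Signs changed only for values that were not called. Trp53 after LL irradiation was -0.000126 with all 6 controls and -0.0252 with exchanged controls (single omissions -0.15 to 0.20), and with exchanged controls Cdkn1a was -0.0177 and Btg2 -0.0349. Between controls, median-ratio scaling gave Sesn1 0.0375 and Psrc1 0.0215 (omissions -0.28 to 0.0905 and -0.24 to 0.0434). Between irradiated groups Mdm2 was -0.0459 without the pancreatic lists, and Trp53 ran from -0.28 to 0.0739. In the difference between the responses Btg2 was -0.15 with either scaling and -0.50 without the pancreatic libraries (omissions -0.18 to 0.31), Sesn2 was -0.11 with either and -0.0587 without them (-0.0607 to 0.14), and Gdf15 was -0.0213 without them (-0.0551 to 0.43). Trp53 ran from -0.33 to 0.0237 and Gtse1 from -0.24 to 0.001197 there. The mean response of Trp53 was 0.0394 without the pancreatic lists (omissions -0.14 to 0.0398). The causes were not tested.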
